A study of Mus musculus with 16 samples.

Results

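The genes described are the Tie receptors Tek (also called Tie2) and Tie1, the angiopoietins Angpt1 and Angpt2, and the receptor phosphatase gene Ptprb, chosen by symbol. All 5 were among the 33531 gene symbols of the deposited table, and all 5 reached an FPKM of 1 in 2 or more libraries, the filter on low values, as did 13955 genes in all. The libraries came from mouse conceptuses of superovulated B6C3F1 females and males homozygous for a Runx1-GFP allele, so every group carried the same reporter. Hemogenic endothelial cells (HE), the endothelium from which blood cells bud, were sorted as positive for Runx1-GFP and CD31, with low or no kit. Other endothelial cells (EC) were sorted as CD31-positive cells without Runx1-GFP or kit. Both gates left out cells with CD41 or CD45. Each was taken on embryonic days E10.5 and E9.5. The tissue was the yolk sac or an embryo region around the aorta-gonad-mesonephros with some somite tissue and the vitelline and umbilical vessels left on. This gave 8 groups of 2 libraries. Nothing in the labels says that replicates came from separate litters or sorts. The p-values therefore reflect only how far these libraries differed, which may be technical.

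Angiopoietins are secreted ligands of Tek, a receptor tyrosine kinase of endothelium. Angpt1, made mainly by cells around the vessel, activates Tek and steadies vessels, while Angpt2, made by endothelium itself, can oppose or weakly replace it. Tie1 binds no angiopoietin directly but pairs with Tek and tunes its signal. Ptprb encodes VE-PTP, which removes phosphate from Tek and from VE-cadherin, the endothelial junction protein encoded by Cdh5. Mice without Tek die in midgestation with faulty vessels, and blood formation around their aorta is impaired.

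The start regions of Tek and Tie1 are shown because RefSeq promoters (GRCm38.p6) were matched for only these 2 of the 5 genes. The 250 bases before each annotated start follow, with GGAA, the core letters that ETS factors of endothelium bind, in capitals on either strand (TTCC where the core lies on the other strand). Tek lies at chr4:94739039-94739288 on the plus strand and Tie1 at chr4:118489850-118490099 on the minus strand.
Tek: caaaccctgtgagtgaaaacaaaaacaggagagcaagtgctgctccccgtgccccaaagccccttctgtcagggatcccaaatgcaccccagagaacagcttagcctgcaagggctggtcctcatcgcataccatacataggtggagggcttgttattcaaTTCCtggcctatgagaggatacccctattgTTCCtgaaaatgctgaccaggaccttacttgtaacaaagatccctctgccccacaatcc
Tie1: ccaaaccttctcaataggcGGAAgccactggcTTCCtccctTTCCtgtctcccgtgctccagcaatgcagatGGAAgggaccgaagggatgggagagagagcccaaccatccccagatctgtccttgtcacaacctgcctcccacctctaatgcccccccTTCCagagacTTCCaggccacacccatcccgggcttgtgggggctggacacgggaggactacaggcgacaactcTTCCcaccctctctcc
The Tek window held 2 copies of GGAA and the Tie1 window 7. At least 2 copies stood in 76.8% of 32851 promoter windows of this length, and at least 7 in 3.82%. Neither window held TGTGGT or TGCGGT, letters bound by RUNX factors (18.6% of windows hold either), AGATAA, bound by GATA factors (9.99%), or GTAAACA, bound by forkhead factors (3.17%). No copy of GGAA overlapped another. The matches are letters in a short window and say nothing of binding.

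All levels are the FPKM that the authors deposited (fragments per kilobase, scaled to library size), so genes can be compared per length. Libraries summed to 586501 to 785252 FPKM and held 11639 to 12527 genes at 1 or more, and replicates had a correlation of 0.939 to 0.983 over genes (log2 scale). Runx1 was 2.19 and 2.17 FPKM in the E10.5 yolk sac pair labelled HE, against 2.60 and 2.04 in EC of the same tissue, so it did not separate them. In the other settings it was higher in every HE library. That pair also stood apart in endothelial genes: 15 markers of endothelium (such as Pecam1, Cdh5, Kdr, Erg and Plvap, none at 0 in any library) summed to between 283 and 895 FPKM there, and to at least 1109 in each of the other 14 libraries. Pecam1, which encodes the CD31 of the sort, was 47.6 and 12.6 FPKM in them. The fits were also run without this pair.

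Tie1 was the most abundant of the 5 genes. It was above Tek in 16 of 16 libraries, and Tek was above Ptprb in 16 of 16. Over all libraries Tie1 ranged from 12.8 to 314 FPKM with a median of 185, Tek from 8.20 to 143 with a median of 51.6, and Ptprb from 1.93 to 23.8 with a median of 9.83. Angpt1 (0.658 to 4.01, median 2.09) and Angpt2 (0.229 to 8.89, median 2.67) were low throughout. The mean of Tie1 stood above those of 95.9% of tested genes, that of Angpt1 above 20.5%. For Tie1, Tek, Ptprb and Angpt2 the lowest library was E10.5 yolk sac HE replicate 2 and the highest E9.5 yolk sac EC replicate 1. The lowest library of Angpt1 was E10.5 embryo EC replicate 1.

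**Figure D1:**
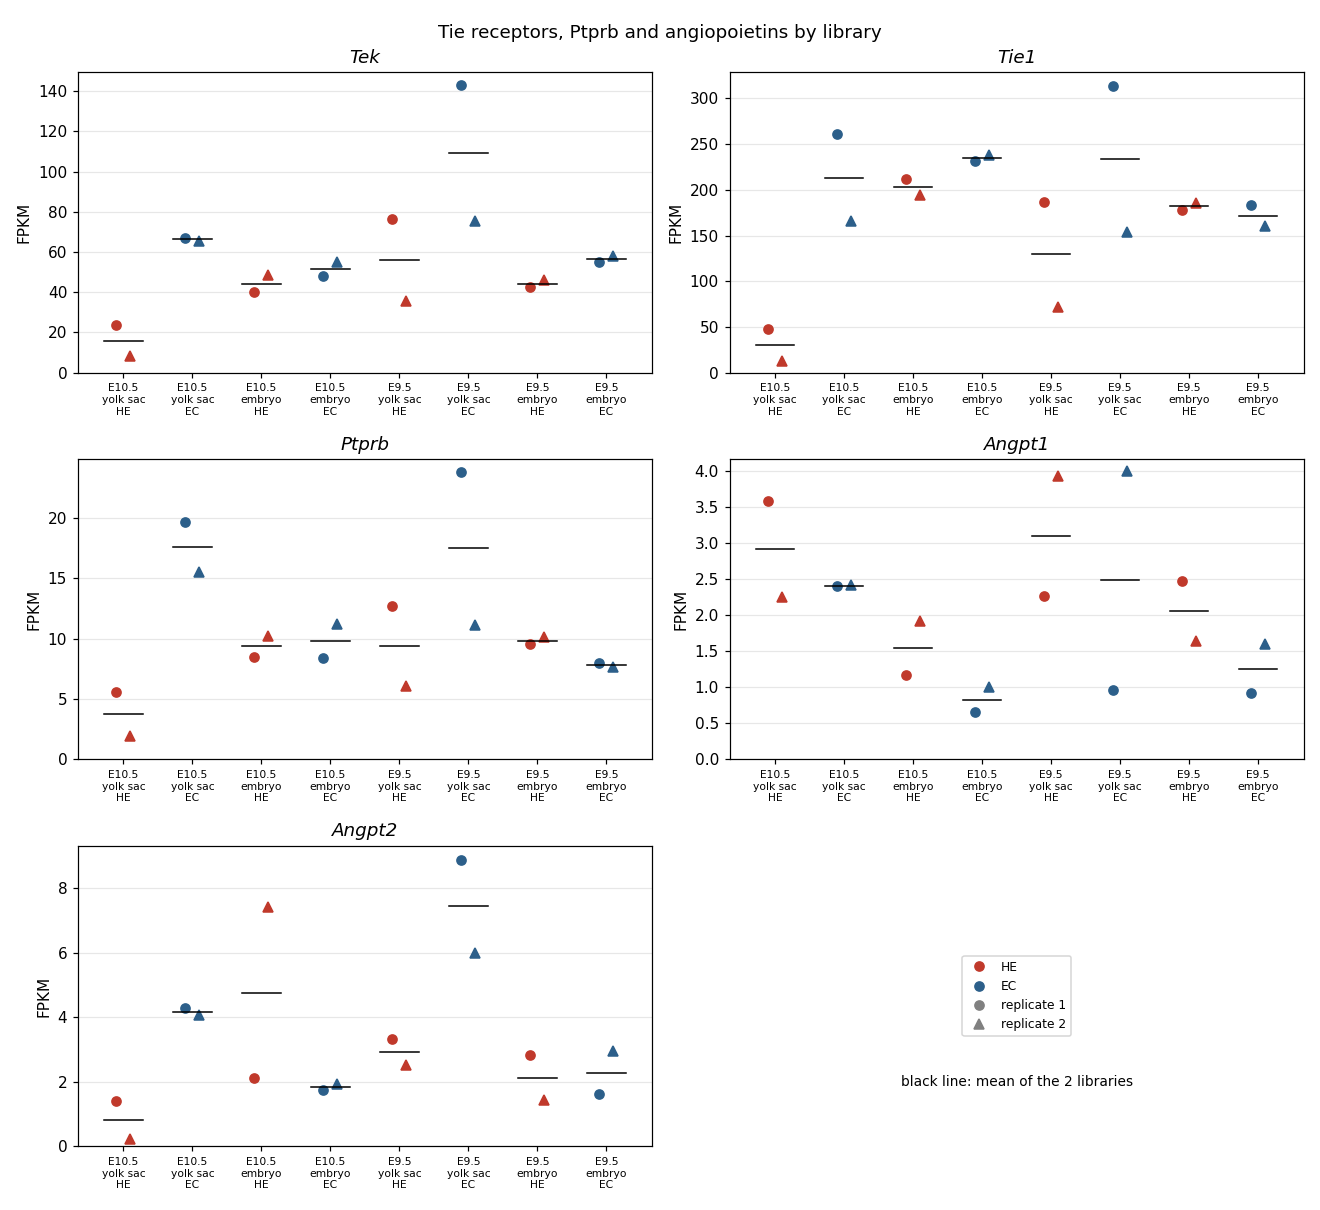
FPKM of Tek, Tie1, Ptprb, Angpt1 and Angpt2 (vertical axes, each from 0) in the 16 libraries, with the 8 groups along the horizontal axis, HE in red and EC in blue; the black line is the mean of the 2 libraries of a group. The 3 receptor and phosphatase genes are lowest in the E10.5 yolk sac pair labelled HE, where Angpt1 is not low.

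Tek, the angiopoietin receptor, had 23.5 and 8.20 FPKM in the E10.5 yolk sac pair labelled HE, against 66.9 and 65.6 in EC. In the E10.5 embryo it had 39.9 and 48.4 FPKM in HE libraries, against 47.9 and 55.1 in EC libraries. In the E9.5 yolk sac it had 76.2 and 35.8 FPKM in HE libraries, against 143 and 75.4 in EC libraries. In the E9.5 embryo the values were 42.4 and 46.1 FPKM in HE libraries, against 54.9 and 58.2 in EC libraries. The HE libraries lay below the EC libraries without overlap in the E10.5 yolk sac and the E9.5 embryo, and the groups overlapped in the other 2 settings. Here and below, the share of all genes without overlap was not counted, so non-overlap only describes these libraries. By group mean, Tek was highest in E9.5 yolk sac EC (109 ± 47.7, SD, n = 2) and E10.5 yolk sac EC (66.3 ± 0.860), and lowest in the E10.5 yolk sac pair labelled HE (15.9 ± 10.8), while the 5 groups between them had means from 44.2 to 56.5. Ordered by mean log2 level, those 2 EC groups did not overlap with each other or with the next group, E10.5 embryo EC did not overlap with E9.5 embryo HE below it, and the lowest group did not overlap with its neighbour. The other neighbours overlapped. E9.5 yolk sac HE, lower in this order, overlapped with both yolk sac EC groups.

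Tie1, the partner receptor, had 47.4 and 12.8 FPKM in the E10.5 yolk sac pair labelled HE, against 261 and 166 in EC. In the E10.5 embryo the values were 212 and 195 FPKM in HE libraries, against 232 and 239 in EC libraries. In E9.5 yolk sac the values were 186 and 72.3 FPKM in HE libraries, against 314 and 154 in EC libraries. In the E9.5 embryo they were 178 and 186 FPKM in HE libraries, against 183 and 160 in EC libraries. HE lay below EC without overlap at E10.5 in both tissues, and overlapped with it at E9.5. Ordered by mean log2 level, the neighbours without overlap were E10.5 embryo HE above E9.5 embryo HE, and E9.5 yolk sac HE (129 ± 80.6, n = 2) above the E10.5 yolk sac pair labelled HE (30.1 ± 24.5). The other neighbours overlapped, and the means of the top 3 groups, all EC, were 235, 234 and 213 FPKM.

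Ptprb, which encodes the phosphatase VE-PTP, had 5.59 and 1.93 FPKM in the E10.5 yolk sac pair labelled HE, against 19.6 and 15.5 in EC. In the E10.5 embryo it had 8.51 and 10.2 FPKM in HE libraries, against 8.43 and 11.3 in EC libraries. In the E9.5 yolk sac it had 12.7 and 6.10 FPKM in HE libraries, against 23.8 and 11.2 in EC libraries. In the E9.5 embryo it had 9.55 and 10.1 FPKM in HE libraries, against 7.99 and 7.68 in EC libraries. The E9.5 embryo was thus the setting where both HE libraries lay above both EC libraries, and the E10.5 yolk sac the reverse. The 2 yolk sac EC groups had the highest means (17.6 and 17.5 FPKM) and overlapped with each other. Ordered by mean log2 level, they lay above the next group, E9.5 embryo HE, without overlap, while E10.5 embryo EC, with almost the same level as that group, overlapped with E9.5 yolk sac EC. The lowest group, the E10.5 yolk sac pair labelled HE, also stood clear of its neighbour, and the others overlapped in order. E9.5 yolk sac HE, lower in this order, overlapped with E9.5 yolk sac EC as well.

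Angpt2, the ligand made by endothelium, had 1.41 and 0.229 FPKM in the E10.5 yolk sac pair labelled HE, against 4.29 and 4.06 in EC. In the E10.5 embryo the values were 2.12 and 7.41 FPKM in HE libraries, against 1.74 and 1.92 in EC libraries. In E9.5 yolk sac the values were 3.33 and 2.52 FPKM in HE libraries, against 8.89 and 5.99 in EC libraries. In the E9.5 embryo they were 2.82 and 1.44 FPKM in HE libraries, against 1.61 and 2.96 in EC libraries. HE lay below EC without overlap in both yolk sac settings, above it in the E10.5 embryo, and overlapped in the E9.5 embryo. In the GENCODE annotation Angpt2 overlaps Mcph1, a gene of chromosome condensation, on the opposite strand. The use of strand in counting is not known here, so reads of these genes may not be fully separated. Ptprb overlaps the gene model Gm47625 and the snoRNA gene Gm26495 on its own strand. Mcph1 stayed between 3.22 and 6.52 FPKM over the 16 libraries and was not called in any of the 4 settings.

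Angpt1, the activating ligand, had 3.58 and 2.26 FPKM in the E10.5 yolk sac pair labelled HE, against 2.40 and 2.42 in EC. In the E10.5 embryo it had 1.17 and 1.92 FPKM in HE libraries, against 0.658 and 0.999 in EC libraries. In the E9.5 yolk sac it had 2.27 and 3.94 FPKM in HE libraries, against 0.961 and 4.01 in EC libraries, and in the E9.5 embryo 2.48 and 1.65 FPKM in HE libraries, against 0.922 and 1.60 in EC libraries. HE lay above EC without overlap at both embryo stages and overlapped with it in the yolk sac, and every neighbouring pair of the 8 groups, ordered by mean log2 level, overlapped. An antisense gene model, Gm17473, overlaps Angpt1, with the same limit as for Angpt2. Angpt1 exceeded Angpt2 in 4 of 16 libraries. The ratio was 2.54 and 9.84 in the E10.5 yolk sac pair labelled HE, 1.56 in E9.5 yolk sac HE replicate 2 and 1.14 in E9.5 embryo HE replicate 2.

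The first comparison asked how HE differs from EC, with the 4 settings averaged equally (n = 8 libraries each). Differences are of log2(FPKM + 1) ± SE from limma, adjusted over 13955 genes by Benjamini-Hochberg, and understate changes of low genes. Tek fell in HE by 0.93 ± 0.22 (mean FPKM 40.1 in HE against 70.9 in EC, adjusted p = 0.0235) and Tie1 by 1.01 ± 0.27 (136 in HE against 214 in EC, adjusted p = 0.0347). Ptprb (−0.66 ± 0.21, adjusted p = 0.0574), Angpt2 (−0.47 ± 0.22, 0.174) and Angpt1 (0.36 ± 0.20, 0.23) did not pass. The 2 of 5 genes called lower stand beside 5.67% of all tested genes called lower, and 14 of the 15 endothelial markers were called lower too, with a median of −0.9995 beside 0.03 over all genes. Without the E10.5 yolk sac pair labelled HE neither receptor passed (Tek −0.52, Tie1 −0.35), nor did any of the 15 endothelial markers (median −0.50), and of the runs without 1 library Tek lost its call in 5 of 16 and Tie1 in 12 of 16, with adjusted p up to 0.0591 and 0.0824. These are bulk libraries, in which fewer endothelial cells and less of a transcript per cell cannot be told apart.

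Within settings, calls were found in the E10.5 yolk sac. There Tie1 fell by 3.02 ± 0.54 (adjusted p = 0.0103), Tek by 2.16 ± 0.43 (adjusted p = 0.0142), Ptprb by 2.07 ± 0.42 (adjusted p = 0.0145) and Angpt2 by 1.59 ± 0.45 (adjusted p = 0.0463) in the libraries labelled HE by limma (n = 2 each). Angpt1 did not pass (0.18 ± 0.39, adjusted p = 0.816). These 4 of 5 genes stand beside 6.48% of tested genes called lower there, and all 15 endothelial markers were called lower, with a median of −2.70. Pericyte and mesenchymal markers (14 genes) summed to between 6121 and 7601 FPKM in these libraries labelled HE, where Col1a1 was listed at 0 in both and Meox1 in replicate 2, against 3715 to 4454 in EC. Of these 14, limma called 1, Col1a1, as lower in the pair labelled HE. That call rests on the values listed at 0, for a gene that reached 1817 FPKM elsewhere. Whether such a 0 is a low level or a missing value is not known. The part of these markers in the result was not tested. The calls rest on few libraries: without E10.5 yolk sac EC replicate 1, or without replicate 2 of the libraries labelled HE, none of the 4 passed (Tie1 −2.70 and −2.11), and without EC replicate 2 Tie1 and Ptprb passed. Angpt2 also lost its call in 8 of the 12 runs that left out a library of another group.

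In the other settings none of the 5 genes was called by limma. Over all genes 0.158% were called in the E9.5 embryo, 0.0143% in the E9.5 yolk sac and 0.208% in the E10.5 embryo, and 1225, 1336 and 1029 genes had an unadjusted p under 0.05. In the E9.5 yolk sac Tek was −0.98 ± 0.43, Tie1 −0.92 ± 0.54, Ptprb −0.82 ± 0.42 and Angpt2 −1.09 ± 0.45 (n = 2 each, adjusted p at least 0.5), with a median of −1.01 over the 15 endothelial markers. In the E9.5 embryo Tek was −0.35 ± 0.43, Tie1 0.09 ± 0.54 and Ptprb 0.29 ± 0.42, and the endothelial median was −0.23. In the E10.5 embryo Tek was −0.22 ± 0.43, Tie1 −0.21 ± 0.54, Ptprb −0.06 ± 0.42 and Angpt2 0.86 ± 0.45, and the endothelial median was −0.32. Angpt2 in this last setting rested on HE replicate 2, without which the difference was 0.14.

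Whether the HE-EC difference itself differed between tissues was tested as an interaction. It was −1.91 ± 0.54 for Tie1 (yolk sac minus embryo), −1.73 ± 0.45 for Angpt2, −1.56 ± 0.42 for Ptprb, −1.29 ± 0.43 for Tek and −0.18 ± 0.39 for Angpt1, and none passed (limma adjusted p at least 0.19, beside 0.107% of genes called). Without E10.5 yolk sac HE replicate 1, which leaves replicate 2 alone in its group, Tek, Tie1, Angpt2 and Ptprb passed, and the count over all genes was 391 in place of 15. None of the 5 interactions with stage passed by the same test (adjusted p at least 0.78, 0.0287% called, 887 genes with an unadjusted p under 0.05).

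**Figure D2:**
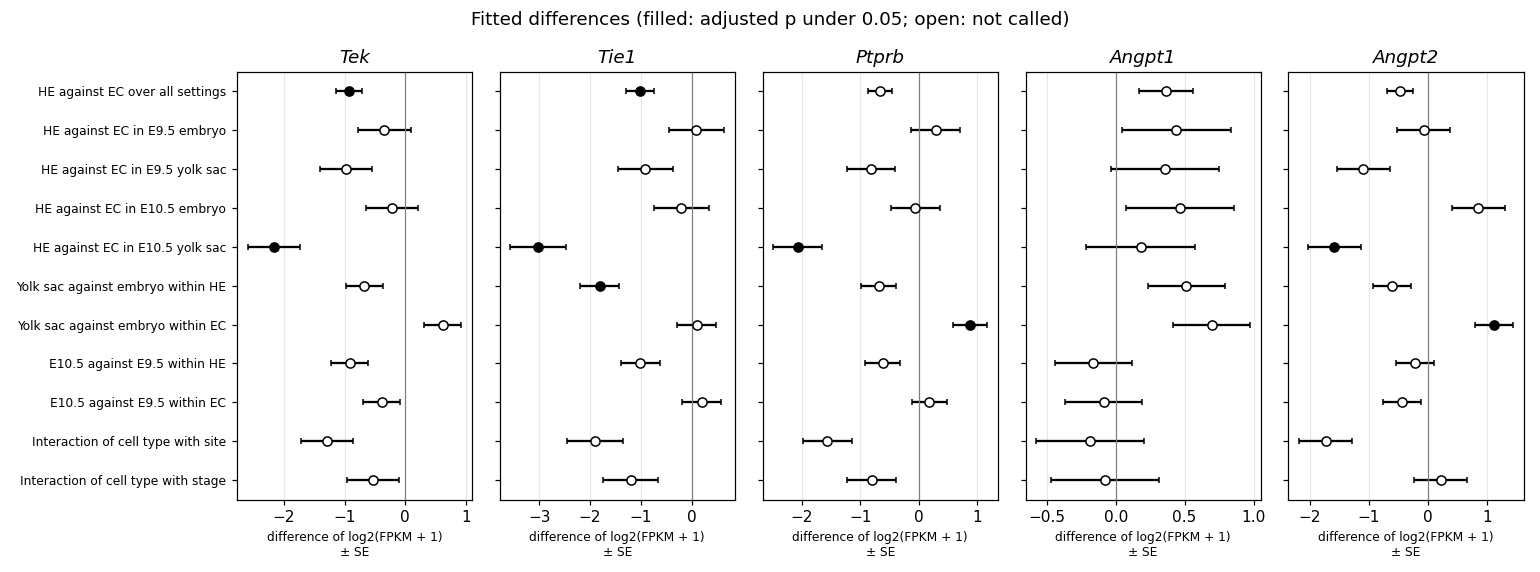
Fitted differences of log2(FPKM + 1) with their SE (horizontal axes, a scale for each gene) for the 11 comparisons, 1 gene per panel; filled points have an adjusted p under 0.05. Filled points stand for the E10.5 yolk sac in 4 genes, for HE against EC over all settings in Tek and Tie1, for the tissue comparison within HE in Tie1 and within EC in Ptprb and Angpt2.

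The next comparison asked how yolk sac differs from embryo. Within EC (n = 4 libraries each) Angpt2 rose in the yolk sac by 1.12 ± 0.32 (mean FPKM 5.81 in yolk sac against 2.06 in embryo, adjusted p = 0.0173) and Ptprb by 0.88 ± 0.29 (17.5 in yolk sac against 8.84 in embryo, adjusted p = 0.0373) by limma. All 4 yolk sac EC libraries had more Angpt2 than the 4 embryo EC libraries, the lowest being 4.06 in yolk sac and the highest 2.96 in embryo. Tek was 0.61 ± 0.31 (87.7 in yolk sac against 54.0 in embryo, adjusted p = 0.143), Angpt1 0.70 ± 0.28 (adjusted p = 0.0734) and Tie1 0.09 ± 0.38 (adjusted p = 0.877), none of which passed. The 2 of 5 genes called higher stand beside 15.4% of all genes called higher. Over all genes the median difference was −0.10 within EC and −0.14 within HE. The endothelial markers had a median of −0.07 here, with 1 of 15 called, lower. The Angpt2 call ended without E9.5 embryo EC replicate 1 (adjusted p = 0.0725) or E9.5 yolk sac EC replicate 1 (0.0580), and that of Ptprb in 9 of 16 such runs, with values from 0.62 to 1.14.

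Within HE, Tie1 fell in the yolk sac by 1.81 ± 0.38 (mean FPKM 79.7 in yolk sac against 193 in embryo, n = 4 libraries each, limma adjusted p = 0.00327). This stands beside 22.3% of genes called lower and all 15 endothelial markers, whose median was −1.84. Tie1 kept its call in each of the 16 runs without 1 library. It did not pass without the E10.5 yolk sac pair labelled HE (−0.64, adjusted p = 0.333), where 2 of the 15 endothelial markers were called lower. Tek (−0.67), Ptprb (−0.68), Angpt2 (−0.61) and Angpt1 (0.51) did not pass, and without those libraries Tek was 0.24 and Angpt2 0.35. Markers of other cell types differed between the tissues: 9 visceral endoderm markers summed to between 2057 and 9132 FPKM in the yolk sac libraries, against 4.44 to 82.8 in the embryo libraries, and all 8 erythroid markers were called higher in the yolk sac in EC and in HE. Of 14 pericyte and mesenchymal markers, 5 were called higher and 5 lower in yolk sac HE, and 6 higher and 4 lower in yolk sac EC. The calls in HE included Col1a1 and Meox1, which hold values listed at 0 in the E10.5 yolk sac pair labelled HE. Without the E10.5 yolk sac pair labelled HE, the calls in yolk sac HE were 4 of the 8 erythroid markers, all higher, and 4 of the 14 pericyte and mesenchymal markers, all lower. Their part in the tissue differences was not tested.

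Stage changed none of the 5 genes past the threshold. Within HE, E10.5 against E9.5, Tie1 was −1.01 ± 0.38, Tek −0.92 ± 0.31, Ptprb −0.62 ± 0.29, Angpt2 −0.22 ± 0.32 and Angpt1 −0.16 ± 0.28 (n = 4 each, limma adjusted p at least 0.145, beside 2.28% of genes called and 2495 with an unadjusted p under 0.05). Without the E10.5 yolk sac pair labelled HE, the embryo gave 0.16 for Tie1, −0.01 for Tek and 0.74 for Angpt2. Within EC the differences were between −0.43 for Angpt2 and 0.19 for Tie1 and Ptprb (adjusted p at least 0.49, beside 2.02% called and 2565 genes with an unadjusted p under 0.05).

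Since Tie1, Tek and Ptprb moved with the endothelial markers, their levels were also set against Cdh5, Pecam1 and Kdr (the VEGF receptor gene) within each library, a step chosen after the values had been seen. Each of the 27 ratio tests, over 3 genes, 3 denominators and 3 comparisons, was a two-sided exact permutation test that exchanged libraries between the compared groups within each of the 4 combinations of the other factors, and whose smallest possible p was 0.00154. Relative to Cdh5, Tie1 stayed between 0.527 and 0.764 in all 16 libraries, a span of 1.45 times, while its own level spanned 24.6 times. Averaged over settings, its ratio to Cdh5 did not differ between tissues, cell types or stages past the threshold (exact permutation p = 0.27, 0.466 and 0.483). The settings differed in direction by tissue, however. At E9.5 the ratio was 0.662 to 0.743 in yolk sac, against 0.543 to 0.563 in embryo, without overlap. At E10.5 it was 0.527 and 0.594 in the yolk sac pair labelled HE, against 0.647 and 0.725 in embryo HE. The ratios of Tek and Ptprb to Cdh5 split by tissue in the same direction in every setting. The ratio of Tek to Cdh5 was 0.188 to 0.357 (median 0.303) in yolk sac, against 0.134 to 0.204 (median 0.151) in embryo, 1.91-fold higher on average within settings and higher in all 4 settings (exact permutation p = 0.00154, adjusted 0.00694, n = 8 each). The ratio of Ptprb to Cdh5 was 0.0502 to 0.0799 in yolk sac, against 0.0237 to 0.0341 in embryo, with no overlap and a mean fold of 2.05 (exact permutation p = 0.00154, adjusted 0.00694, n = 8 each). The part of the other cell types named above in these ratios was not tested.

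Against the other denominators the tissue difference of Tek was 2.12-fold over Pecam1 and 1.53-fold over Kdr, and that of Ptprb 2.27-fold and 1.65-fold, each higher in yolk sac, in all 4 settings except for Ptprb over Kdr, in 3 (exact permutation, adjusted p 0.00694 for Tek and for Ptprb over Pecam1, 0.0185 for Ptprb over Kdr). Tie1 over Pecam1 (1.19-fold, adjusted 0.0682) and over Kdr (0.860-fold, 0.189) did not pass. Without the E10.5 yolk sac pair labelled HE, or without any 1 library, Tek over each denominator and Ptprb over Cdh5 and Pecam1 kept their tissue difference, with log2 ratios between 0.53 and 1.23. Ptprb over Kdr did not pass without that pair (0.62, adjusted 0.0769). Runs that leave out libraries have fewer possible exchanges, so their smallest possible p is larger than in the full set. A call lost in such a run therefore does not by itself show a smaller difference. Between cell types, Ptprb over Cdh5 was 1.17-fold higher in HE (exact permutation p = 0.00309, adjusted 0.0119, n = 8 each), and in all 4 settings. It did not pass over Pecam1 (adjusted 0.0799) or Kdr (0.128), and over Cdh5 it kept its call without any 1 library but not without the E10.5 yolk sac pair labelled HE (log2 ratio 0.18, adjusted 0.0625). Tek over Cdh5 (1.02-fold) and Tie1 over Cdh5 (0.966-fold) did not pass between HE and EC. By stage, Tek over Pecam1 was lower at E10.5 than at E9.5 (0.702-fold, adjusted 0.00694) in all 4 settings, while Tek over Cdh5 was not past the threshold (0.882-fold, adjusted 0.193). Ptprb over Cdh5 was 1.17-fold higher at E10.5 (adjusted 0.0185), also in all 4 settings, but over Pecam1 it was 0.930-fold (adjusted 0.485), and over Cdh5 it did not pass without the E10.5 yolk sac pair labelled HE (log2 ratio 0.16, adjusted 0.0769). Tie1 over Pecam1 was 0.835-fold at E10.5 (exact permutation p = 0.0185, adjusted 0.05, n = 8 each), lower in 3 of 4 settings and at the threshold without passing it. It passed in 3 of the 16 runs without 1 library.

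**Figure D3:**
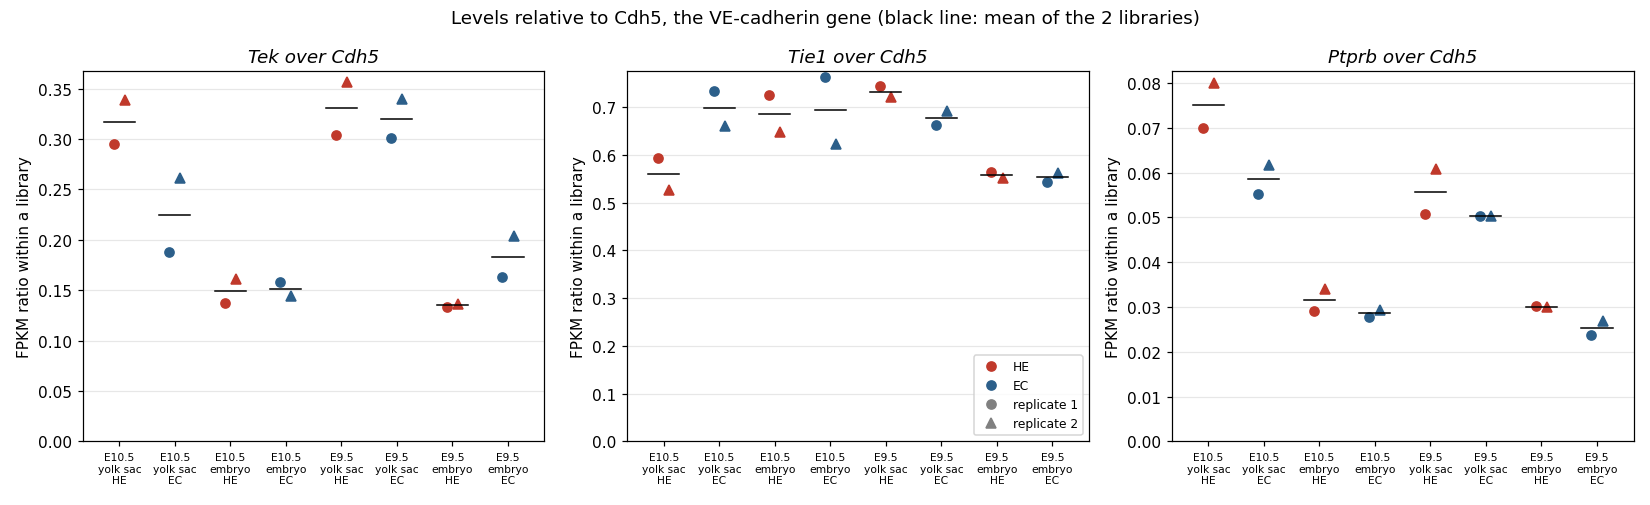
Ratio of Tek, Tie1 and Ptprb to Cdh5 (FPKM over FPKM within a library, vertical axes from 0) in the 16 libraries, HE in red and EC in blue, with the mean of the 2 libraries of a group as a black line. Tek and Ptprb ratios are higher in the 4 yolk sac groups than in the 4 embryo groups, while Tie1 stays between 0.527 and 0.764.

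Among tested genes with a mean of at least 5 FPKM (9030), the genes most like Tie1 over the 16 libraries were Nos3, the endothelial nitric oxide synthase gene (Pearson r = 0.996 of log2 values), the repressor gene Bcl6b (0.993), the endothelial exchange factor gene Arhgef15 (0.990) and Gm16047 (0.989). Those most like Tek were Ldb2 (0.981), a LIM domain binding cofactor, Lpar6 (0.956), Rb1 (0.955) and Rapgef5 (0.954). Those most like Ptprb were 4632428N05Rik (0.966), the sulfotransferase gene Chst7 (0.961), the endothelial diaphragm gene Plvap (0.958) and the scavenger receptor gene Stab1 (0.956). Angpt2 was most like the protease gene Adamts4 (0.848), Snrk (0.831), Plekhg1 (0.831) and Itga1 (0.829), and Angpt1 most like Speg (0.934), a kinase gene of muscle, Sh3bp1 (0.922), Rab34 (0.911) and the syndecan gene Sdc1 (0.910). The points share libraries, and the E10.5 yolk sac pair labelled HE spread the endothelial genes most. Between the members, r was 0.885 for Tek with Tie1, 0.924 for Tek with Ptprb, 0.805 for Tek with Angpt2 and −0.25 for Tek with Angpt1. Deviations from the group mean over the 8 groups gave 0.966 for Tek with Tie1 and −0.09 for Tek with Angpt1.

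Of 34 further genes of the pathway, chosen with earlier results of these data known, 33 were in the table and all 33 passed the filter. Among the other ligands and binding proteins, Angpt4, a further Tek ligand, rose in the yolk sac by 2.59 ± 0.41 in HE (mean FPKM 12.9 in yolk sac against 1.26 in embryo, adjusted p = 0.000472) and by 1.77 ± 0.41 in EC (7.74 in yolk sac against 1.48 in embryo, adjusted p = 0.00583) by limma. Angpt4 was above Angpt1 in all 8 yolk sac libraries, at 15.9 and 9.90 FPKM in the E10.5 pair labelled HE, 6.93 and 6.94 in E10.5 EC, 10.3 and 15.4 in E9.5 HE, and 2.37 and 14.7 in E9.5 EC. Over the 16 libraries its log2 values followed those of Angpt1 with r = 0.834. E9.5 yolk sac EC replicate 1 was low for both ligands and for mesenchymal markers (a sum of 818 FPKM, against 3577 in replicate 2), while it was the highest library for Tek and Tie1.

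**Figure D4:**
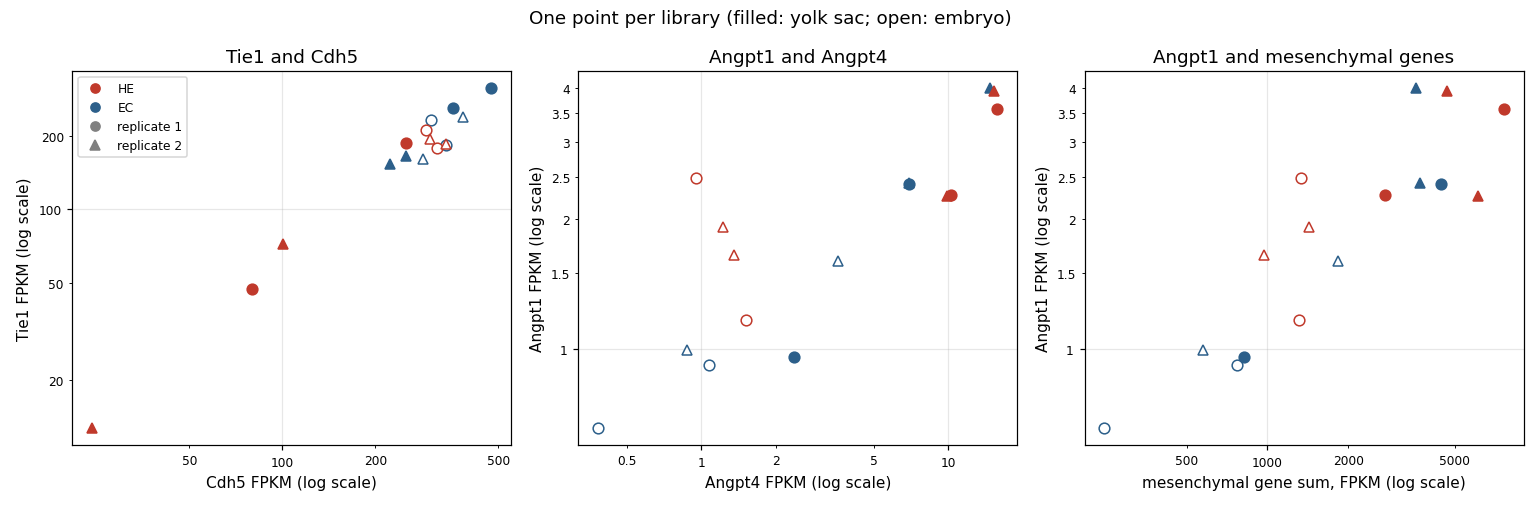
Levels in FPKM on log axes, with 1 point per library, HE in red and EC in blue, yolk sac filled and embryo open: Tie1 against Cdh5, Angpt1 against Angpt4, and Angpt1 against the sum of 14 pericyte and mesenchyme genes, in which Col1a1 is listed at 0 in the E10.5 yolk sac pair labelled HE. Tie1 follows Cdh5 down to the 2 lowest libraries, and Angpt1 is lowest in E10.5 embryo EC replicate 1, where the mesenchymal sum is also lowest.

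Svep1, a matrix protein that can bind Tie1, rose in HE by 1.11 ± 0.19 over all settings (mean FPKM 7.84 in HE against 2.67 in EC, limma adjusted p = 0.0111), and in the yolk sac by 1.71 ± 0.27 within HE and 0.79 ± 0.27 within EC. Its values were 13.8 and 17.9 FPKM in the E10.5 yolk sac pair labelled HE, against 4.62 and 2.30 in EC. Mesenchymal markers also summed higher there, as given above. Without that pair neither the difference between HE and EC (0.83, limma adjusted p = 0.0715) nor that between tissues within HE (0.59, adjusted p = 0.353) passed. Lect2, reported as a ligand of Tie1, was called higher in yolk sac, in HE not without that pair (adjusted p = 0.178), but reached 1.28 FPKM at most and was listed at 0 in 4 embryo libraries. Of 6 angiopoietin-like genes 3 passed the filter, and of these Angptl4 and Angptl6 were called higher in yolk sac in EC and HE. Within HE, Angptl4 did not pass without the E10.5 yolk sac pair labelled HE (0.57, limma adjusted p = 0.0902), while Angptl6 did (4.94, adjusted p = 0.000326). Angptl6 averaged 180 FPKM in yolk sac HE against 3.01 in embryo HE, and 111 in yolk sac EC against 1.86 in embryo EC. Markers of other cell types also differed between the tissues, as given above, and their part in this difference was not tested.

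Of 17 genes of the receptor adaptors and signal chain, limma called 2 higher (Dok2, Ptpn11) and 1 lower (Nos3) in HE over all settings, beside 6.7% of all genes higher and 5.67% lower. Dok2, an adaptor that docks on activated Tek and is also known from blood cells, rose by 0.96 ± 0.12 (mean FPKM 4.89 in HE against 2.22 in EC, adjusted p = 0.00354). It rose by 1.61 ± 0.24 in the E9.5 embryo (6.23 and 5.39 FPKM in HE libraries, against 0.998 and 1.47 in EC libraries) and by 1.50 ± 0.24 in the E10.5 embryo. It did not pass in the E9.5 yolk sac (0.99 ± 0.24, limma adjusted p = 0.339) or in the E10.5 yolk sac, where the difference was −0.26 ± 0.24 (4.49 and 2.97 FPKM in the pair labelled HE, against 5.37 and 3.91 in EC). Blood markers (6 genes, such as Coro1a and Was) summed to 43.0 to 55.1 FPKM in E9.5 embryo HE against 16.4 to 25.8 in EC. Of these, 4 passed the filter, not Ptprc or Spn, and limma called 1, Was, higher in E9.5 embryo HE. Their part in the rise was not tested. Nos3 fell by 0.99 ± 0.28 (adjusted p = 0.0432). Between tissues, Akt2, a kinase downstream of Tek, was higher in the yolk sac within HE (0.66 ± 0.20, limma adjusted p = 0.0219) and within EC (0.69 ± 0.20, limma adjusted p = 0.0196). Foxo1, the factor that Akt holds in check, fell in yolk sac HE by 0.76 ± 0.23 (adjusted p = 0.0219).

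Among 6 partners at the membrane, Itgb3, an integrin subunit, rose in HE over all settings (1.20 ± 0.14, limma adjusted p = 0.00354) and Cdh5 fell (−0.97 ± 0.26, adjusted p = 0.0356). Of 7 megakaryocyte and platelet markers, 2 (Gp1bb and Ppbp) were also called higher in HE there. Their part in the rise of Itgb3 was not tested. Of 7 tested outputs and transcription factors, Klf2, Esm1, Apln and Ets1 fell in HE over all settings (−1.01, −1.15, −0.83 and −0.64), and these with Epas1 in the E10.5 yolk sac pair labelled HE. Esm1, a tip cell gene, averaged 7.63 FPKM in HE against 17.9 in EC. The whole list of 33 had a median of −0.04 in HE against EC, with 4 genes higher and 6 lower. In yolk sac against embryo 5 were higher and 9 lower within HE, and 9 higher and 4 lower within EC, where all genes gave 14.6% and 22.3% within HE, and 15.4% and 18.7% within EC. None of the 33 was called by stage in either cell type by limma. Without the E10.5 yolk sac pair labelled HE, the 33 genes had 2 called higher (Dok2, 1.37, and Itgb3, 1.60) and none lower in HE against EC over the remaining settings. Nos3 was then −0.38 (adjusted p = 0.371) and Ptpn11 0.22 (adjusted p = 0.237). In yolk sac against embryo within HE, left with E9.5, 1 was then higher (Angpt4, 2.67) and 3 were lower, among them Apln (−1.55) and Gata3, while Akt2 (0.53, adjusted p = 0.264) and Foxo1 (−0.44, adjusted p = 0.406) did not pass. By stage within HE, left with the embryo, 2 were then lower, Pik3cb and Itgb3. The share of all genes called in the fit without that pair alone is not given here, so these counts only describe the list.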

How the data were processed

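The authors deposited FPKM values for 33531 gene symbols in 16 libraries. Per the submitters' processing notes Cufflinks and featureCounts were used, with no version or role given, and the build mm9. No label or header names the aligner, the annotation or the use of strand. The members, lists and motifs were chosen with earlier results of these data known. FPKM carries no read total, so depth is unknown. Steps between values under 0.3 FPKM gave a clear relative depth for 8 of 15 libraries, at 0.674 to 0.993 times that of E9.5 embryo EC replicate 1.

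The 13955 genes that reached 1 FPKM in 2 or more libraries were fitted as log2(FPKM + 1) with limma 3.58.1 in R 4.3.3, with 1 mean for each of the 8 groups, an intensity trend and 8 residual degrees of freedom, and called at an adjusted p under 0.05. The code was tested on simulated data. Named were the 5 members, called pathway genes, and the 4 most similar genes to each. Alternatives were a pseudocount of 0.1, no filter, median-ratio scaling, a replicate block and leaving out libraries. Whether replicate numbers pair samples is not known. Deviations of same-numbered libraries had an r of −0.261 to 0.380, over 0.1 in 8 of 28 pairs of groups. This check did not single out groups of the same stage and tissue, so it cannot decide whether those share a litter or sort. The values of 1 pathway gene are not reported here.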

Additional observations from a re-analysis of the deposited data

Results flagged for a closer look

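The HE and EC libraries did not overlap for Angpt2 in 3 settings, and the sign of the difference was not the same in all of them. Groups this small can easily fail to overlap, and the share of all genes that did so was not counted. HE lay below EC in the E9.5 yolk sac (−1.09 ± 0.45) and in the E10.5 yolk sac pair labelled HE (−1.59 ± 0.45), and above EC in the E10.5 embryo (0.86 ± 0.45). By limma the E10.5 yolk sac value passed, while the E9.5 yolk sac (adjusted p = 0.500) and the E10.5 embryo (adjusted p = 0.771) did not, and the E10.5 embryo difference was 0.14 without HE replicate 2. For Ptprb the libraries did not overlap in the E9.5 embryo, where HE lay above EC by less than its SE (0.29 ± 0.42, limma adjusted p = 0.870), or in the E10.5 yolk sac, where the pair labelled HE lay below EC (−2.07 ± 0.42). The differences between single settings were not tested. The interaction with tissue, averaged over stages, did not pass for Angpt2 (limma adjusted p = 0.190) or Ptprb (adjusted p = 0.197).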

How the results depend on the processing

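Values on the log2 scale follow, with n = 2 libraries a group and the causes not tested. Of the 5 genes, the number called in HE against EC over all settings (2) was 0 without the filter, 0 without the E10.5 yolk sac pair labelled HE, and 0 to 4 without single libraries. In the E10.5 yolk sac (4) it was 0 to 4 without single libraries. For yolk sac against embryo within HE (1) it was 0 without that pair and 1 to 3 without single libraries. Within EC (2) it was 1 with a pseudocount of 0.1, 1 without the filter and 0 to 2 without single libraries. For stage within HE (0) it was 0 to 2, and for the interaction with tissue (0) it was 0 to 4, each time without single libraries.

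Over the whole table, the calls without single libraries ran from 491 to 2763 for HE against EC (1726), 5 to 35 in the E9.5 embryo (22), 0 to 3 in the E9.5 yolk sac (2), 2 to 29 in the E10.5 embryo (29) and 13 to 2625 in the E10.5 yolk sac (1335). They ran from 3961 to 5599 for yolk sac against embryo within HE (5150), 3343 to 5216 within EC (4758), 91 to 830 for stage within HE (318), 38 to 548 within EC (282), 0 to 391 for the interaction with tissue (15) and 0 to 42 for that with stage (4). Under the other alternatives they ran from 355 to 1861, 18 to 58, 0 to 11, 5 to 94 and 912 to 1582 in the comparisons of cell type, 2099 to 5476 and 4442 to 5187 between tissues, 148 to 412 and 149 to 543 between stages, and 0 to 46 and 1 to 8 for the interactions.

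It is not known whether replicate numbers pair the libraries. With the replicate block, 3 of the 5 genes were called in HE against EC (Ptprb −0.66, adjusted p = 0.042 by limma) and 3 in the E10.5 yolk sac, where Angpt2 had an adjusted p of 0.0518. The number of the 5 genes called was otherwise as without the block, and 46 genes in place of 15 were called for the interaction with tissue. For the comparisons of cell type, the share of all genes called with the block alone is not given here.

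No value that changed sign was past the threshold. Without the E10.5 yolk sac pair labelled HE, yolk sac against embryo within HE was 0.24 for Tek and 0.35 for Angpt2, stage within HE was 0.16 for Tie1 and 0.74 for Angpt2, and the interaction with stage was 0.13 for Tek and 0.027 for Angpt1. With a pseudocount of 0.1 that interaction was −0.053 for Angpt2. The ratio in HE against EC was then, without that pair, −0.14 for Tek over Cdh5, −0.086 for Tek over Pecam1, 0.038 for Tie1 over Cdh5, 0.089 for Tie1 over Pecam1 and 0.20 for Tie1 over Kdr, and the ratio of Tie1 over Kdr by stage was 0.099.

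Without single libraries Angpt1 ran from −0.32 to 1.04 in the E9.5 yolk sac, −0.066 to 0.43 in the E10.5 yolk sac, −0.43 to 0.25 by stage within EC, −0.52 to 0.15 for the interaction with tissue and −0.41 to 0.26 for that with stage. Angpt2 ran from −0.40 to 0.25 in the E9.5 embryo, −0.58 to 0.14 by stage within HE and −0.14 to 0.57 for the interaction with stage. Tie1 ran from −0.0075 to 0.18 in the E9.5 embryo, −0.16 to 0.35 between tissues within EC and −0.069 to 0.44 by stage within EC. Ptprb ran from −0.24 to 0.13 in the E10.5 embryo and −0.071 to 0.44 by stage within EC. In HE against EC the ratios ran from −0.034 to 0.084 for Tek over Cdh5, −0.022 to 0.078 for Tek over Pecam1, −0.082 to 0.055 for Tie1 over Kdr and −0.096 to 0.00031 for Tie1 over Pecam1, and Tie1 over Kdr by stage ran from −0.074 to 0.062.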
